A study of Rattus norvegicus with 10 samples.

Results

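The genes described here encode the machinery that attaches ubiquitin to proteins, removes it, or degrades the proteins that carry it, and they were measured in the supraoptic nucleus (SON) of rats after knockdown of the transcription factor Creb3l1. They were taken by symbol, through 19 prefixes such as Ube2, Usp, Fbxo, Klhl, Rnf, Trim and Psm, from the study's own list of genes that differed between control and knockdown SONs. This gave 63 genes of the 32402 in the count table. Of these, 58 matched as written and 5 were March genes whose symbols a spreadsheet had turned into dates and which were recovered from their descriptions. Psmc5 matched a prefix but was left out because the paper's pathway analysis of genes bound by Creb3l1 lists it. No gene with the prefix Herc was found. Because the study's adjusted p-value in the same contrast chose these genes, that they differ at all, and much of how large and even the differences are, is a property of the choice. Their direction, size and spread are therefore described below without a test over the group, and symbols were available for only 1999 genes, those with the smallest adjusted p-values.

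Poly(A) RNA was sequenced from 10 SONs of 5 male Sprague Dawley rats. Each rat received an adeno-associated virus with a non-targeting shRNA in the left SON (control) and a virus with a Creb3l1 shRNA in the right SON (knockdown), and both SONs were collected 3 weeks later as tissue punches. Side and treatment were the same in all 5 animals and cannot be told apart. The SON holds magnocellular neurones that make vasopressin and oxytocin, but a punch also takes glia, vessels and passing axons, so that in these bulk samples fewer cells of a type and less RNA per cell cannot be told apart. The total count per SON was 29754252 to 34382889 in the control group and 29020948 to 33612965 in the knockdown group. Values per SON are CPM (counts relative to the library total) scaled with edgeR's TMM factors. They are not divided by gene length, so they are compared within a gene and not between genes.

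Ubiquitin is activated by an E1 enzyme, passed to an E2 conjugating enzyme and placed on a substrate with the help of an E3 ligase. RING ligases bring the E2 and the substrate together, HECT ligases carry the ubiquitin themselves, and cullin ligases use exchangeable adaptors, such as kelch-like proteins on Cul3 and F-box proteins on the Skp1 and Cul1 core, to choose the substrate. Deubiquitinases remove ubiquitin, and the proteasome degrades marked proteins, among them misfolded proteins that are exported from the endoplasmic reticulum (ER) of secretory cells.

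RefSeq sequences for the bases before the start of the gene (build GRCr8, 250 bases) were at hand for 53 of the 63 genes, 4 of them through a synonym. They are shown for Mkrn3 and Klhl42, the genes with the largest fall and the clearest rise, and for 3 genes that hold a searched motif. Capitals mark every match to 1 of 4 motifs, searched on both strands: TGACGT, the core of the cAMP response element that factors of the CREB family bind; TGACGTGG, which contains it and is part of the unfolded protein response element; the E-box CACGTG; and the GC box CCCCGCCCC. A match on the opposite strand reads ACGTCA or CCACGTCA. Mkrn3 and Klhl42 hold none of the 4.
Mkrn3 (chr1:125341179-125341428, minus strand): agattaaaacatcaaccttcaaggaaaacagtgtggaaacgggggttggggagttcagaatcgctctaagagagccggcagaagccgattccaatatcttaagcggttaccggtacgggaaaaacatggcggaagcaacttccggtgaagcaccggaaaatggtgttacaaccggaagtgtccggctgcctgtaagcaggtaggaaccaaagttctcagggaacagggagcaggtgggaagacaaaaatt
Klhl42 (chr4:181734982-181735231, plus strand): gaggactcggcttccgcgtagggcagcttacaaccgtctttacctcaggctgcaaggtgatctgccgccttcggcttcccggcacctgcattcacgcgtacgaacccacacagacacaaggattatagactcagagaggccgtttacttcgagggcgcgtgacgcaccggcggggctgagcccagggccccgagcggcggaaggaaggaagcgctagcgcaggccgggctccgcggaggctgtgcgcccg
Ube2j1 (chr5:52218557-52218806, plus strand): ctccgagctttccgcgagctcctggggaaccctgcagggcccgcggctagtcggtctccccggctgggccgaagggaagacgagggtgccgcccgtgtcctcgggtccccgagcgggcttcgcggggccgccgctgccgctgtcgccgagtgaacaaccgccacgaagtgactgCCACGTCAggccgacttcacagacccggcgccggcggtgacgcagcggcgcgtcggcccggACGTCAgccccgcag
Uchl5 (chr13:58070826-58071075, plus strand): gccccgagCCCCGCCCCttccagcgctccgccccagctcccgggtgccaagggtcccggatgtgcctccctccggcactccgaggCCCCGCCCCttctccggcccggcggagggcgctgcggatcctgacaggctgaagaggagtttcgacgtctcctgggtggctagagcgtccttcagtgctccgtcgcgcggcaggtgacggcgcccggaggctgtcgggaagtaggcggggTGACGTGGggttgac
Klhl28 (chr6:88755073-88755322, minus strand): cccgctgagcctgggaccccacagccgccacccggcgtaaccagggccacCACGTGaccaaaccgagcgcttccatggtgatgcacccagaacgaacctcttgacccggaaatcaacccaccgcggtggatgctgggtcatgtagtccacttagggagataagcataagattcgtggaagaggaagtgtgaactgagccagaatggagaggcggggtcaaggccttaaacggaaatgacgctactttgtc
TGACGT was found before 8 of the 53 genes (15.1%), against 7.68% of 27457 genes searched in the same way. The longer TGACGTGG was found before 3 of them (5.66%), Ube2j1, Uchl5 and Rnf39, against 0.594% of all genes. CACGTG was found before 5 (9.43% against 6.18%) and CCCCGCCCC before 7 (13.2% against 10.2%). These shares are descriptions of letters in a window. The 27457 genes include many that were not tested for expression here, unlike the 63, and the share for TGACGTGG rests on 3 genes. Of the 3 genes with TGACGTGG, Ube2j1 and Uchl5 were lower in knockdown SONs and Rnf39 was higher in 4 of 5 animals. The study's list of bound genes, given next, holds none of these 3. The study's own list of genes both bound by Creb3l1 and differing after knockdown held 5 of the 63 (7.94%), which were Klhl24, Klhl28, Fbxo9, Hectd2 and March5, against 9.95% of the 1999 named genes. The paper mapped binding in pooled tissue of the SON and the paraventricular nucleus of water-deprived rats. The rats whose RNA was sequenced here are not described as water-deprived. The rule that left out Psmc5 removes bound genes of listed pathways from the 63 but not from the 1999. These shares therefore do not compare like with like.

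The knockdown was present in every animal. Creb3l1 was at 20.3, 26.5, 30.7, 33.5 and 23.4 CPM in the control SONs of animals 1 to 5 and at 7.10, 13.8, 8.68, 16.6 and 13.6 CPM in their knockdown SONs. The 2 groups did not overlap, and the log2 fold change was -1.16 ± 0.24 (SE), with an edgeR adjusted p = 0.0173 (quasi-likelihood, Benjamini-Hochberg over all genes). The ± on every log2 fold change is its standard error. Blocking on the animal gave an adjusted p = 0.0586.

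Of the 63 genes, 25 were higher and 38 lower in knockdown SONs, and all 63 had enough counts to be tested among 16286 genes. With edgeR's quasi-likelihood test at an adjusted p under 0.05, 46 were past the threshold, 20 of them higher and 26 lower. Over all genes tested 7.86% were past it, 3.36% higher and 4.49% lower, a background from which nothing can be read here because the same contrast chose the genes. Among all 1990 named genes tested, chosen in the same way, 63.9% were past it. The share of calls that were higher was 43.5% for the 63 genes and 42.8% for all genes called. The groups did not overlap in 48 genes, 20 with knockdown above control and 28 below, against 9.65% of all genes, 4.16% above and 5.50% below. Differences had the same sign in all 5 animals for 61 genes, against 3253 of the 16286 genes tested (20%), and this too follows from the choice. With library size as the only scaling the calls were 15 higher and 34 lower.

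With the animal as a block, which leaves 4 residual degrees of freedom, all 63 genes kept their direction and 1 of them, Klhl42, was past the threshold, against 0.0553% of all genes (9 genes). Adjusted p-values of the 63 then ranged from 0.0415 to 0.307. At an unadjusted p under 0.05 with the block there were 62 genes, against 18.4% of all genes. The same SONs chose the genes, so this count too follows from the choice.

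The differences were mostly small, though larger than over all genes. The median absolute log2 fold change was 0.43 against 0.20 over all genes tested. Of the 63, 40 lay under 0.5, against 14212 of the 16286 genes tested. Those over 1 were 4 of the 63, Mkrn3, Ube2u, Klhl42 and Trim72, against 384 of all genes tested. Rises ranged from 0.26 to 1.19 with a median of 0.44 and falls from -0.17 to -1.71 with a median of -0.42. The median level was 57.6 CPM in control SONs against 23.2 for all genes, and 55 of the 63 had over 100 counts in every SON. The median coefficient of variation was 7.47% among control SONs and 10.3% among knockdown SONs, against 15.6% and 17.3% for all genes. A choice by adjusted p favours larger changes, higher counts and a low spread, so these contrasts with all genes are largely set by the choice and nothing is read from them.

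**Figure D1:**
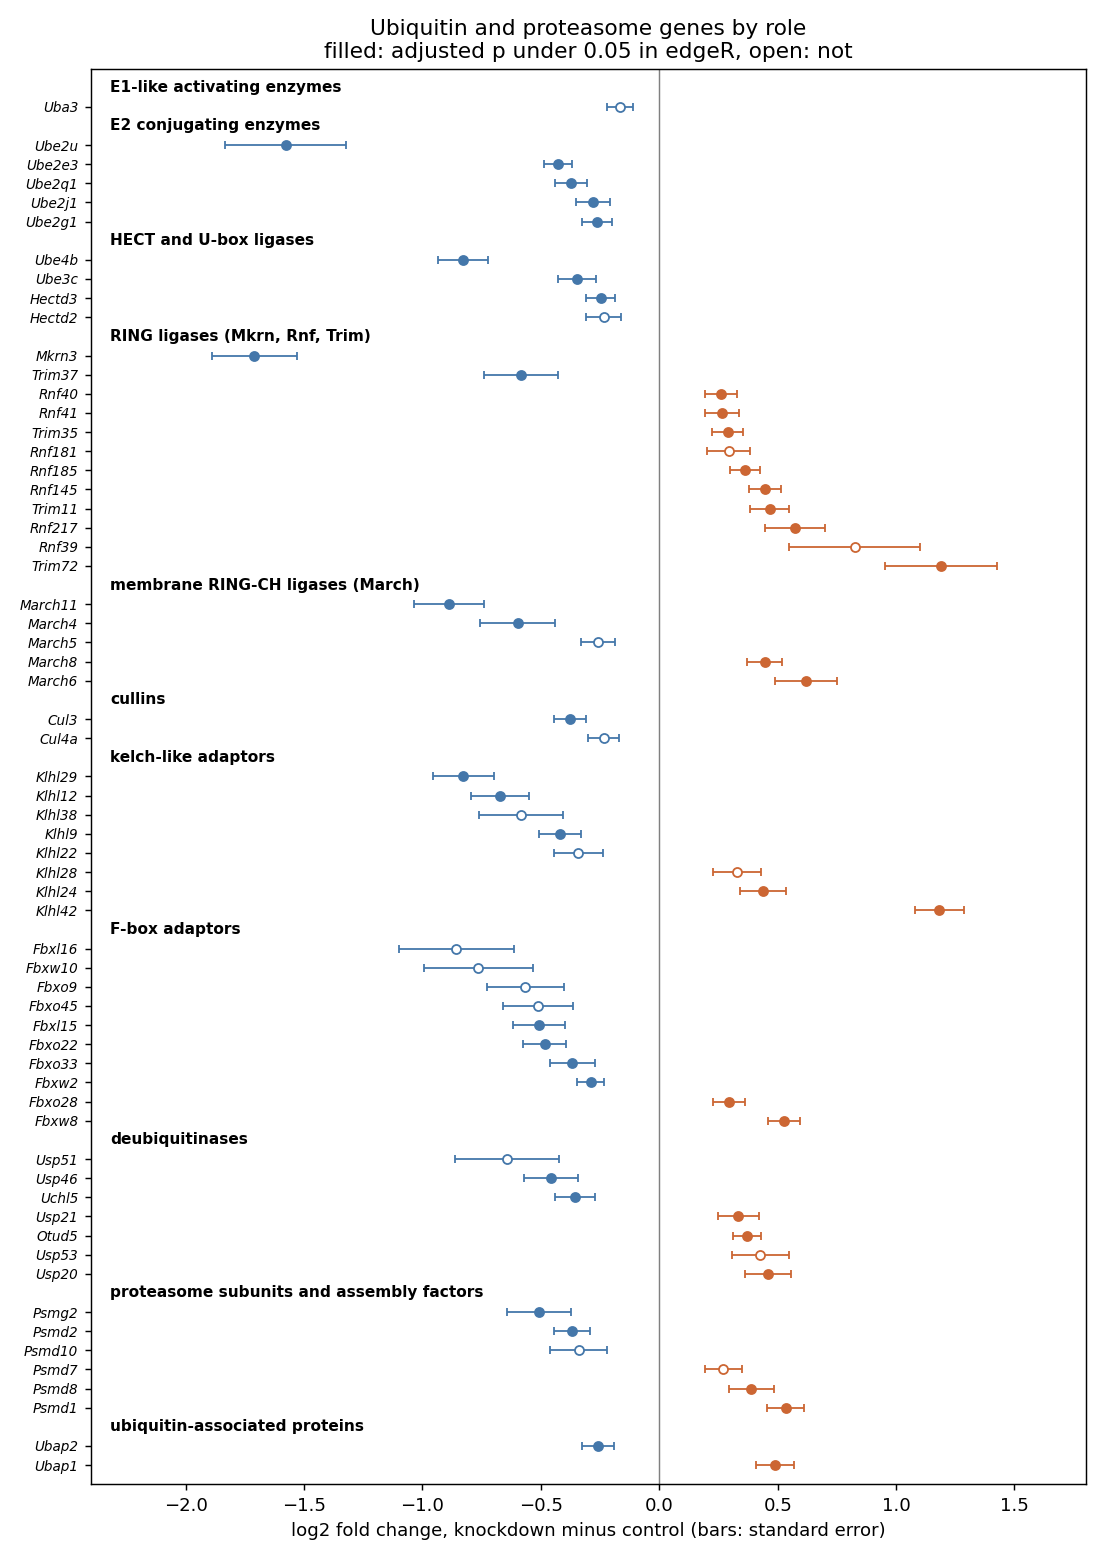
Log2 fold change of 62 of the 63 genes (horizontal axis, knockdown minus control, with the standard error), grouped by role. Filled points are past an adjusted p of 0.05 in edgeR and open points are not. All 5 E2 enzymes and all 4 HECT and U-box ligases lie left of zero, and 10 of 12 RING ligases lie right of it.

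The roles were unevenly spread over the 2 directions, in a list where 38 of the 63 genes were lower. Several roles hold few genes, and the counts include genes not past the threshold. All 5 E2 conjugating enzymes, both cullins and all 4 HECT and U-box ligases were lower, while 10 of 12 RING ligases of the Mkrn, Rnf and Trim families were higher. F-box adaptors were lower in 8 of 10 cases. Kelch-like adaptors (3 higher, 5 lower), March ligases (2 and 3), deubiquitinases (4 and 3), proteasome genes (3 and 3) and ubiquitin-associated proteins (1 and 1) were divided. Whether roles differ was not tested, since the genes were chosen by this contrast.

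Mkrn3 (ENSRNOG00000010172), an imprinted makorin RING ligase known as a brake on the onset of puberty in the hypothalamus, fell most of the 63 genes. It was at 5.84, 4.92, 6.78, 7.15 and 5.21 CPM in the control SONs of animals 1 to 5 and at 1.93, 1.61, 1.73, 1.44 and 2.42 CPM in the knockdown SONs. The lowest control SON, at 4.92 CPM, was far above the highest knockdown SON, at 2.42 CPM. The mean went from 5.98 ± 0.967 to 1.83 ± 0.376 CPM (SD, n = 5), a log2 fold change of -1.71 ± 0.18. Its counts, 40 to 238 per SON, were low beside those of most of the 63 genes. Blocking on the animal gave an edgeR adjusted p = 0.0562, short of the threshold.

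Most other RING ligases went the opposite way. Trim72, a membrane-repair protein best known from muscle, was at 1.82, 1.04, 1.12, 1.08 and 1.32 CPM in control SONs and at 3.88, 2.08, 2.23, 3.57 and 2.84 in knockdown SONs (log2 fold change 1.19 ± 0.24). The groups did not overlap, but the 35 to 123 counts per SON were few. Rnf145, an ER-membrane ligase of cholesterol metabolism, went from 83.1 ± 2.77 to 113 ± 8.46 CPM (SD, n = 5), log2 fold change 0.45 ± 0.07, with every knockdown SON above every control SON. Rnf185, another ER ligase with a part in the degradation of misfolded proteins, went from 38.9 ± 1.52 to 49.9 ± 3.04 CPM (SD, n = 5), log2 fold change 0.36 ± 0.06, again without overlap. Trim11 and Rnf217 had log2 fold changes of 0.47 and 0.57. Rnf40, which acts on histone H2B, Rnf41 and Trim35 had smaller rises of 0.26, 0.27 and 0.29. Rnf181 (0.29) and Rnf39 (0.83) were higher in the mean without passing the threshold, and Rnf39 overlapped between groups. Besides Mkrn3, only Trim37 was lower among the 12, from 128 ± 15.8 to 85.4 ± 19.6 CPM (SD, n = 5), log2 fold change -0.58 ± 0.16, with overlap between the control SON of animal 1 at 102 CPM and the knockdown SON of animal 3 at 112 CPM. None of the 10 RING ligase calls, Mkrn3 included, held with the block (edgeR adjusted p-values 0.0562 to 0.194).

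The membrane-bound March ligases split. March6, an ER-resident ligase that degrades enzymes of sterol synthesis, was at 71.3, 103, 85.5, 104 and 93.5 CPM in control SONs and at 141, 149.8, 169, 131 and 113 in knockdown SONs (log2 fold change 0.62 ± 0.13). Every animal was higher on the knockdown side, by amounts that varied widely, and animal 3 had the highest level. March8, which acts on cell-surface receptors, rose by 0.44 on the log2 scale. March11 was at 3.24, 3.67, 3.79, 3.13 and 3.68 CPM in control SONs and 1.74, 1.86, 2.36, 1.95 and 1.55 in knockdown SONs (log2 fold change -0.89 ± 0.15). The groups were far apart, though at 48 to 132 counts per SON. March4 had -0.60 and March5, the ligase of the outer mitochondrial membrane, -0.26, the latter not past the threshold and higher in the knockdown SON of animal 4. The 4 March calls did not hold with the block (edgeR adjusted p-values 0.0828 to 0.161).

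**Figure D2:**
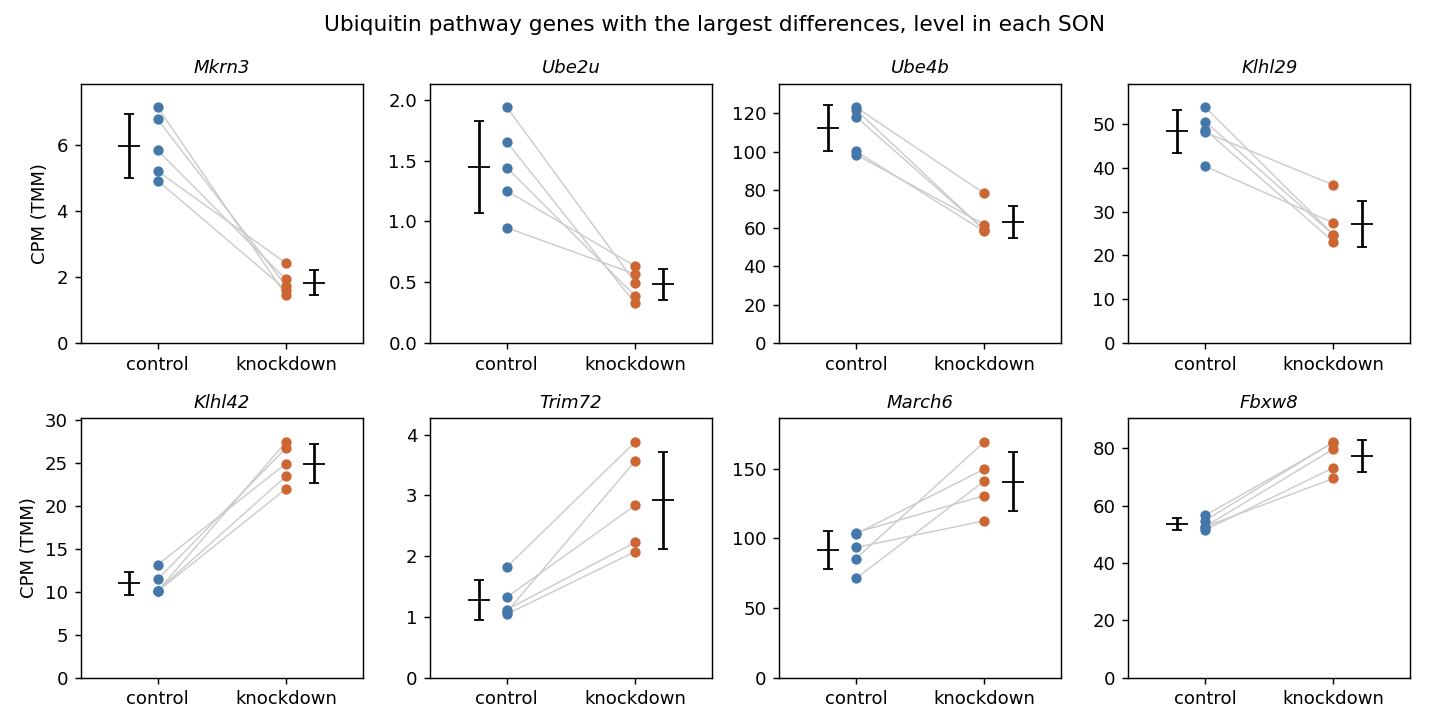
Level of 8 genes in each SON (vertical axis, TMM-normalised CPM), with control SONs on the left and knockdown SONs on the right of each panel, lines joining the SONs of 1 animal, and the mean and SD (n = 5) beside the points. In all 8 genes the groups do not overlap: Mkrn3, Ube2u, Ube4b and Klhl29 are lower and Klhl42, Trim72, March6 and Fbxw8 higher in knockdown SONs.

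Uba3, the catalytic subunit of the NEDD8 activating enzyme, had a log2 fold change of -0.17, the smallest difference of the 63, and was not past the threshold.

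All 5 E2 genes were lower and past the threshold, though none was with the block (edgeR adjusted p-values 0.0723 to 0.137). Ube2u was at 1.25, 1.94, 0.948, 1.65 and 1.44 CPM in control and 0.631, 0.496, 0.566, 0.324 and 0.387 in knockdown SONs (log2 fold change -1.58 ± 0.25). It had the fewest counts of the 63, at 9 to 65 per SON, and the groups did not overlap. Ube2e3 was at 72.6, 82.1, 79.5, 75.5 and 79.8 CPM in control and 54.3, 57.5, 60.0, 60.7 and 57.2 in knockdown SONs (log2 fold change -0.43 ± 0.06), with a clear gap between the groups. Ube2q1 had -0.37. Ube2j1, an E2 anchored in the ER membrane that serves the degradation of misfolded ER proteins and whose upstream bases hold TGACGTGG, went from 65.8 ± 2.02 to 54.2 ± 4.82 CPM (SD, n = 5), log2 fold change -0.28 ± 0.07. Ube2g1, a partner of cullin ligases, had -0.26.

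Among ligases of the HECT and U-box kind the largest difference was in Ube4b, a U-box enzyme that extends ubiquitin chains. It was at 98.5, 118, 123, 122 and 100.2 CPM in control SONs and 61.9, 59.1, 78.1, 58.9 and 58.3 in knockdown SONs (log2 fold change -0.83 ± 0.11). The knockdown SON of animal 3 stood above the other 4 yet below every control SON. Ube3c, a HECT ligase that binds the proteasome, had -0.35, Hectd3 -0.25 and Hectd2 -0.23, the last not past the threshold. The other 3 were short of it with the block, Ube4b by the least (edgeR adjusted p-values 0.05003 to 0.158).

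Cul3, the scaffold for kelch-like adaptors, was at 167, 177, 172, 174 and 169 CPM in control SONs and 129, 133, 149, 130.3 and 121 in knockdown SONs (log2 fold change -0.38 ± 0.07). The control SONs were close together and all above the knockdown SONs, but with the block the edgeR adjusted p was 0.1002. Cul4a, which pairs with Ddb1, had -0.23 and was not past the threshold, without overlap between the groups.

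The kelch-like adaptors that Cul3 carries included the clearest rise. Klhl42 (ENSRNOG00000001844), an adaptor that directs Cul3 to the microtubule-severing protein katanin, was at 10.1, 11.5, 10.1, 13.2 and 10.1 CPM in control SONs and at 27.5, 26.8, 23.5, 25.0 and 22.0 CPM in knockdown SONs. The lowest knockdown SON was well above the highest control SON, and the log2 fold change was 1.18 ± 0.11. It had the smallest adjusted p of the 63 genes in the fit without and with the animal (0.00104 and 0.0415). Klhl29 went the opposite way, at 40.4, 50.6, 48.1, 53.9 and 48.7 CPM in control and 27.4, 24.7, 36.1, 24.8 and 23.1 in knockdown SONs (log2 fold change -0.83 ± 0.13). The ratio of Klhl42 to Klhl29 CPM, which does not depend on scaling, was 0.228 ± 0.0195 (SD, n = 5) in control SONs against 0.940 ± 0.169 (SD, n = 5) in knockdown SONs, a pair chosen after the values were seen. Klhl12, an adaptor with a part in the export of large cargo from the ER, went from 67.0 ± 4.80 to 42.1 ± 7.95 CPM (SD, n = 5), log2 fold change -0.67 ± 0.12. Klhl9 had -0.42. Klhl24 rose by 0.44, with overlap between 1 control SON (38.8 CPM) and 1 knockdown SON (38.0 CPM). Klhl38 (-0.58), Klhl22 (-0.34) and Klhl28 (0.33) were not past the threshold and overlapped. Of the 5 kelch-like calls Klhl42 alone held with the block, where the others had edgeR adjusted p-values of 0.0676 to 0.122.

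F-box adaptors were mostly lower, with the largest mean differences in genes that varied much between SONs. Fbxl16 was at 89.6, 166, 115, 132 and 125 CPM in control SONs and 66.5, 78.3, 107, 43.8 and 51.1 in knockdown SONs (log2 fold change -0.86 ± 0.24), not past the threshold. Its groups overlapped, with the control SON of animal 1 low and the knockdown SON of animal 3 high. Fbxw10 (-0.76), Fbxo9 (-0.56) and Fbxo45 (-0.51) were also short of the threshold. Those past it were Fbxl15 (-0.51), Fbxo22 (-0.48), Fbxo33 (-0.37) and Fbxw2 (-0.29). Against these stood 2 rises. Fbxw8, which works with Cul7 and is known from neuronal dendrites, was at 52.7, 54.8, 51.5, 56.6 and 52.6 CPM in control SONs and 79.7, 82.2, 73.2, 81.9 and 69.5 in knockdown SONs (log2 fold change 0.53 ± 0.07) with a wide gap between the groups. Fbxo28 rose by 0.30. No F-box call held with the block (edgeR adjusted p-values 0.0562 to 0.153 for the 6).

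Deubiquitinases moved both ways. Usp20 was at 76.8, 91.8, 84.9, 94.5 and 97.8 CPM in control and 132, 121, 127, 132 and 100.3 in knockdown SONs (log2 fold change 0.46 ± 0.10), and the groups touched without overlap at animal 5. Otud5, a regulator of innate immune signalling, was at 109, 104, 103, 97.7 and 101 CPM in control and 137, 131, 125, 135 and 137 in knockdown SONs (log2 fold change 0.37 ± 0.06). Its groups were clearly apart. Usp21 had 0.33 and Usp53 0.43, the latter not past the threshold. On the lower side, Usp46, which acts on glutamate receptors, had -0.46. Uchl5, a deubiquitinase bound to the proteasome whose upstream bases hold TGACGTGG, went from 27.7 ± 2.36 to 21.6 ± 1.74 CPM (SD, n = 5), log2 fold change -0.36 ± 0.09. Usp51 was at 7.97, 5.70, 7.35, 8.95 and 6.77 CPM in control and 4.80, 4.71, 5.59, 5.91 and 2.55 in knockdown SONs (log2 fold change -0.64 ± 0.22). Its groups overlapped and it was not past the threshold. The 5 deubiquitinases that were past it had edgeR adjusted p-values of 0.0947 to 0.150 with the block.

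Proteasome genes divided within the regulatory particle, the part that recognises and unfolds substrates. Psmd1 was at 171, 178, 168, 157 and 170.0 CPM in control and 246, 231, 262, 264 and 219 in knockdown SONs (log2 fold change 0.53 ± 0.08). Its structural neighbour Psmd2 was lower, from 313 ± 16.7 to 243 ± 16.4 CPM (SD, n = 5), log2 fold change -0.37 ± 0.08. Both were without overlap, and the ratio of Psmd1 to Psmd2 CPM was 0.540 ± 0.0278 (SD, n = 5) in control SONs against 1.01 ± 0.0566 (SD, n = 5) in knockdown SONs. The control ratios were 0.523, 0.579, 0.507, 0.539 and 0.553, and the knockdown ratios 1.04, 1.04, 1.05, 0.992 and 0.915. This pair too was chosen after the values were seen. Psmd8 rose by 0.39. Psmd7 had 0.27 without passing the threshold. The assembly factors were lower. Psmg2, a chaperone of core particle assembly, was at 22.5, 16.0, 20.5, 14.8 and 16.8 CPM in control and 11.4, 11.2, 13.1, 13.8 and 14.2 in knockdown SONs (log2 fold change -0.51 ± 0.13), just apart, and Psmd10, a chaperone of the regulatory particle, had -0.34, not past the threshold. The 4 proteasome calls, Psmd1 and Psmd2 among them, were lost with the block (edgeR adjusted p-values 0.0864 to 0.168).

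**Figure D3:**
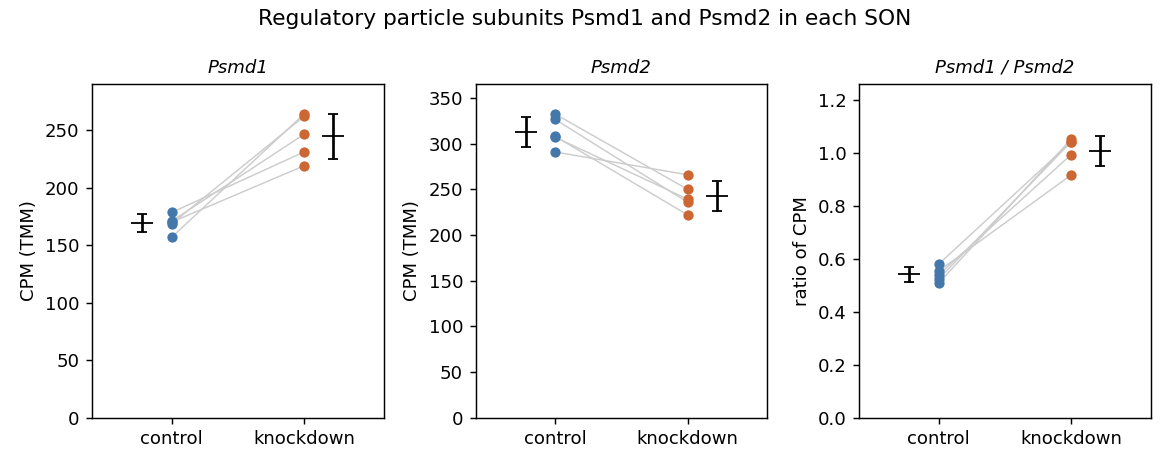
Psmd1, Psmd2 (TMM-normalised CPM) and their ratio in each SON, with control SONs on the left of each panel, knockdown SONs on the right, lines joining the SONs of 1 animal, and mean and SD (n = 5). The ratio is between 0.507 and 0.579 in control SONs and between 0.915 and 1.05 in knockdown SONs.

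Of the ubiquitin-associated proteins, Ubap1, a subunit of the ESCRT-I complex that sorts ubiquitinated membrane proteins, was at 43.6, 41.5, 43.7, 37.9 and 42.5 CPM in control and 57.4, 53.9, 54.7, 69.0 and 58.6 in knockdown SONs (log2 fold change 0.49 ± 0.08) without overlap. Ubap2 was at 88.2, 83.0, 93.4, 89.1 and 88.0 CPM in control and 75.1, 72.7, 64.6, 79.2 and 77.4 in knockdown SONs (log2 fold change -0.26 ± 0.07), also without overlap. With the block neither was past the threshold (edgeR adjusted p-values 0.0947 and 0.195).

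**Figure D4:**
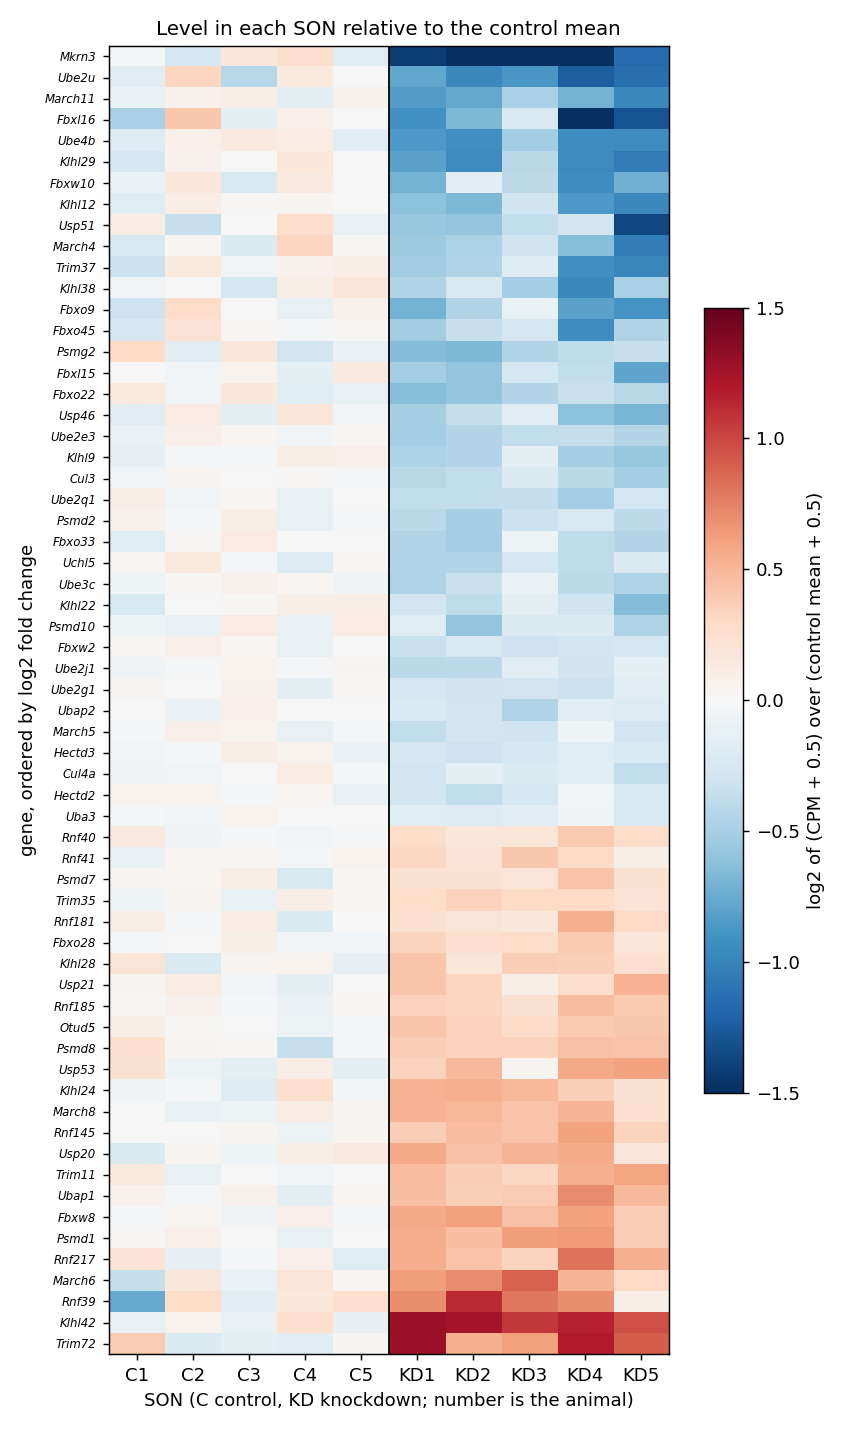
Level of 62 of the 63 genes (rows, ordered by log2 fold change) in each SON (columns, C for control and KD for knockdown, numbered by animal), as the log2 of CPM over the control mean, both plus 0.5 CPM. Knockdown SONs are below the control mean in the upper rows and above it in the lower rows, and the SON of animal 3 is nearest to the control mean most often, for 25 of the 63 genes.

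Animals contributed unequally. The knockdown SON of animal 3 was nearest the control mean for 25 of the 63 genes, that of animal 5 for 18, and those of animals 1, 2 and 4 for 2, 9 and 9. The SONs of animals 5 and 4 were farthest for 19 and 18 genes. The median log2 ratio of an animal's own SONs was between 0.36 and 0.53 over the 25 higher genes and between -0.29 and -0.50 over the 38 lower genes. Animal 3 was at 0.37 and -0.29, so by this measure its differences were smallest over the lower genes only. The same SON of animal 3 had the highest magnocellular markers of the 5 knockdown SONs. Sim1 was at 35.3 CPM there and at 15.6 to 29.9 in the others, Pdyn at 259 CPM against 27.4 to 138, and Cartpt at 26.2 CPM against 6.56 to 11.2, above the 24.4 CPM of its own control SON. Creb3l1 was at 8.68 CPM in it, within the range of the other 4, and at 30.7 CPM in the control SON of animal 3. This fall was the largest of the 5 animals in proportion. Animals 1, 2, 4 and 5 went from 20.3 to 7.1, 26.5 to 13.8, 33.5 to 16.6 and 23.4 to 13.6 CPM. Without the knockdown SON of animal 3, 48 of the 63 genes were past the threshold, 19 higher and 29 lower, against 46 with it. Calls over all genes tested went from 1280 to 1699, so the gain was not particular to the 63. The part of the marker levels in the smaller differences of animal 3 over the lower genes was not tested.

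The list stopped at its weak end with the last of the 1999 genes that had symbols, which are fewer than the paper called. The last genes to enter were Rnf181 and Rnf39, with log2 fold changes of 0.29 and 0.83 here. Genes just outside could not be named. By edgeR's test the 17 genes not past the threshold had adjusted p-values from 0.0557 to 0.114.

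Other genes of these pathways were looked up by list, and as only genes with small adjusted p-values in the study could be named, the counts are minimums. Of 15 core cullin and neddylation genes, 2 were named and both fell, as Cul3 did: Ddb1, the linker of Cul4 ligases, from 324 ± 6.18 to 223 ± 28.4 CPM, log2 fold change -0.54, edgeR adjusted p = 0.00847, and Nae1, the partner of Uba3, from 36.6 ± 2.38 to 28.6 ± 3.28 CPM, log2 fold change -0.36, edgeR adjusted p = 0.0393. Of 11 protein quality control genes 4 were named, of which Bag6, a chaperone that escorts faulty membrane proteins to degradation, fell (199 ± 10.8 to 128 ± 11.3 CPM, log2 fold change -0.64, edgeR adjusted p = 0.00249), while its partner Ubl4a rose (40.3 ± 3.67 to 54.8 ± 4.88 CPM, log2 fold change 0.44, edgeR adjusted p = 0.0145) and so did Ltn1, the ribosome-bound ligase of stalled translation (48.4 ± 1.90 to 63.6 ± 2.92 CPM, log2 fold change 0.39, edgeR adjusted p = 0.00463). Ubqln4 was not past the threshold by edgeR's test (-0.21). The paper reports a change in its expression by qRT-PCR in a separate set of samples. Of 7 UFM1 genes, the UFM1 protease gene Ufsp1 fell (22.7 ± 2.36 to 12.2 ± 4.57 CPM, log2 fold change -0.90, edgeR adjusted p = 0.0288), and Ddrgk1, an adaptor of the UFM1 ligase, was not past the threshold (0.24). Of 9 NEDD4-family ligases Smurf2 rose (48.8 ± 3.22 to 63.2 ± 4.88 CPM, log2 fold change 0.37, edgeR adjusted p = 0.0161) and Hecw1 was not past it (0.60). Of 20 genes for ER-associated degradation Derl1 (-0.26) and Ufd1l (-0.23) were named and not past it. None of 6 ubiquitin and E1 genes was named. Blocking on the animal left 0 of these 7 calls, with edgeR adjusted p-values from 0.0621 to 0.132.

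Markers of cell types were looked up in the same way, so only those with small adjusted p-values in this contrast could be named. That the named ones differ follows from this choice. Of 7 genes of magnocellular neurones, 3 were named. Sim1 fell from 55.3 ± 11.1 to 24.5 ± 8.10 CPM, log2 fold change -1.18, edgeR adjusted p = 0.0136 and Pdyn from 469.6 ± 108 to 119.5 ± 87.2 CPM, log2 fold change -1.97, edgeR adjusted p = 0.0331. Cartpt, from 25.9 ± 6.98 to 11.6 ± 8.39 CPM, log2 fold change -1.17, edgeR adjusted p = 0.102, was not past the threshold. The summed level of the 3 was 400 to 700 CPM in control SONs and 49.8 to 320 CPM in knockdown SONs, and without Pdyn 69.0 to 101 against 22.4 to 61.5 CPM. Of 8 general neuronal genes Nefm alone was named and rose (156 ± 28.5 to 247 ± 39.0 CPM, log2 fold change 0.66, edgeR adjusted p = 0.0263). Blocking on the animal gave Sim1, Pdyn and Nefm edgeR adjusted p-values of 0.0711, 0.0930 and 0.134, past the threshold in none. None of 8 astrocyte, 11 oligodendrocyte, 11 microglia and 6 endothelium markers was among the named genes, so their levels could not be looked up. The part of these shifts in the differences of the 63 genes was not tested.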

How the data were processed

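RNA-seq counts of 10 SONs, 5 control and 5 knockdown, were analysed. Per the submitters' processing notes and the paper's methods, the authors used CASAVA, FastQC, STAR, featureCounts and DESeq2 1.28.1, and deposited raw counts per gene without normalisation. Strand setting and multi-mapping reads are not given in the sources used here. Samples were grouped by their labels. The counts were analysed in R 4.3.3 with edgeR 4.0.16: filterByExpr (minimum count 10) left 16286 of 24286 genes with at least 1 count, TMM factors were 0.956 to 1.07, and the quasi-likelihood test was Benjamini-Hochberg adjusted over all genes (threshold 0.05). The SE of a log2 fold change is its size over the root of F. All columns were used. No pair of replicates agreed within sampling noise (lowest chi-square per degree of freedom 27.5). The test was checked on simulated counts. It recovered 60 of 100 changes with an absolute log2 fold change of 1 and 97 of 100 larger ones, and called 5 unchanged genes. With the animal as a block it recovered 47 of 100 and 96 of 100, and called 8 unchanged genes. Recovery of smaller changes, which most genes described here showed, was not tested. Depth was at least 29020948 counts per SON, which limits genes with few counts most.

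Per the paper's methods each animal received both viruses, and the labels give left and right SONs the same numbers, which were taken to pair the samples. The deviations of paired SONs from their group means correlated at -0.18, 0.50, -0.50, -0.36 and -0.62. Their mean was -0.232, against 0.066 between SONs of different animals. By this measure paired SONs were on average no more alike than others. The paper's methods give no pairing term, so the block is given beside results it changed. Alternatives were DESeq2 1.42.0, RLE factors, library size only, no filter, a 0.01 threshold and the omission of single SONs.

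Values per SON were given, by rule, for Creb3l1, Mkrn3, Klhl42, genes past the threshold with the block, and in each role the largest rise, the largest fall and the smallest p among those at 1 CPM or more in a group. Other genes with per-SON values or ratios were named after their values were seen. Genes, roles and lists were chosen with earlier results of these data known. Upstream bases were RefSeq's, build GRCr8. Authors' fold changes and p-values were used only to find the genes. The values of 1 of the 63 genes are not reported here, though it is in the counts.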

Additional observations from a re-analysis of the deposited data

Results flagged for a closer look

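A SON stood far from the other 4 of its group, by Dixon's test at the 95% level, in 8 of 128 groups of 5 tested, where chance gives about 1 in 20. In 3 genes it was the knockdown SON of animal 3, which lay toward the control level: Ube4b at 78.1 CPM against 58.3 to 61.9 in the others, Klhl9 at 131 against 98.3 to 107, and Fbxo33 at 41.9 against 30.9 to 33.7. Psmd7 was set apart on both sides of animal 4, with 91.9 CPM in the control SON against 109 to 115 and 144 CPM in the knockdown SON against 123 to 126. March5 had 75.6 CPM in the knockdown SON of animal 4 against 61.1 to 64.5. Fbxo28 had 24.3 CPM in the control SON of animal 3 against 22.1 to 22.7, and Rnf40 had 53.1 CPM in the control SON of animal 1 against 46.4 to 47.8.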

How the results depend on the processing

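No gene of the 63 changed direction under any alternative run. The 46 calls (20 higher, 26 lower) became 63 with DESeq2, the tool whose p-values chose the genes, 47 with RLE factors, 49 with library size only, 32 without a filter and 42 without the March genes. With the replicate block 1 remained (1 higher, 0 lower), and at a threshold of 0.01 there were 15 (9 higher, 6 lower). Leaving out single SONs gave 20 to 48 calls (10 to 19 higher, 10 to 29 lower). They fell by more than 1.5 times when control SON 2 (28), 3 (21) or 5 (23) was omitted, or knockdown SON 1 (20), 2 (25) or 4 (30). The cause was not tested. In all 10 of these fits 19 genes were past the threshold, and 9 were in none. Over all genes the 1280 calls became 2188 with DESeq2, 9 with the replicate block, 308 at 0.01 and 519 to 1699 with a SON left out. The 7 calls among other pathway genes became 12 with DESeq2 and 0 with the block. Creb3l1 had a log2 fold change of -1.21 with the block, short of the threshold, and -1.33 to -1.02 with a SON left out. Counts over every gene of these symbol families were not run, since only part of the identifiers had symbols. The smallest counts, in Ube2u, limit its fold change.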
